A study of Mus musculus with 13 samples.

Results

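The genes of T cells and natural killer (NK) cells were followed in livers of mice with cholestasis. The set holds 10 genes, chosen by symbol as markers of these cells, of 23079 to 23725 genes in each of 3 deposited count tables. All 10 were present in the tables. They comprise the T cell receptor subunit Cd3e, the coreceptors Cd4 and Cd8a, the NK receptors Ncr1 and Klrb1c, the cytotoxic granule genes Nkg7, Gzma, Gzmb and Prf1, and the cytokine gene Ifng.

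The livers came from 13 male mice of the C57 strain (C57BL6 in the study's methods), wild type and 3 months old. The mice fell into 3 groups: 5 without BDL and untreated (no BDL, with no statement on sham surgery in the sources used here), 4 with bile duct ligation and injections of a control microRNA oligonucleotide (miR-Ctrl BDL), and 4 with the ligation and injections of an inhibitor of miR-873-5p (anti-miR-873-5p BDL). Bile duct ligation (BDL) ties the common bile duct, so that bile is retained in the liver. Injections were intravenous, on days 3 and 5 after surgery, and the liver was collected on day 7. Each library is whole liver from 1 mouse, and no group received the ligation without an injection or an injection without the ligation.

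T cells carry an antigen receptor that signals through the CD3 chains, with CD4 or CD8 as coreceptor, and NK cells use germline-encoded activating and inhibitory receptors. Both can kill a target cell by releasing granules that hold perforin, which opens the target's membrane, and granzymes, proteases that enter through it. Both also release interferon gamma, which induces antigen presentation and antimicrobial genes in neighbouring cells. The liver is known for a large resident population of NK cells and NK-like T cells in its sinusoids.

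The inhibitor is directed at a mature microRNA, whose sequence is printed because its seed, bases 2 to 8 in capitals, sets which transcripts it can pair with. It is encoded at chr4:36668556-36668576 on the minus strand (RefSeq, GRCm38.p6).
mmu-miR-873a-5p: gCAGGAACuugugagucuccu
The letters GTTCCTG, which pair with this seed, occur in the longest annotated 3′ UTR of 0 of the 10 genes, whose lengths are 67 to 2306 bases. Of 19675 genes of the tables with an annotated 3′ UTR, 14.6% hold these letters, with a median length of 1004 bases. The absence of the letters describes these stretches only.

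Sequencing depth was 12185333 to 19689037 assigned reads per mouse. Values by mouse are normalized counts (CPM, with library totals scaled by TMM across all 13 mice), and 3 reads corresponded to 0.147 to 0.286 on this scale. The 10 genes had between 0 and 87 reads in a mouse, so that single mice weigh heavily. Hepatocyte markers (Alb, Apoa1, Ttr, Cyp2e1, Serpina1c) summed to 42500 to 135002 normalized counts per mouse, as a liver library would show. Mouse 3 of miR-Ctrl BDL and mouse 2 of the other BDL group are absent from the deposited table that sets the BDL groups against each other, where the authors had treated them as outliers, and were present in the other tables.

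Among the 10 genes, Cd4 fell and Gzmb rose after BDL in the miR-Ctrl mice, and none passed the test between anti-miR-873-5p and miR-Ctrl BDL. With 1 mouse left out, the fall of Cd4 passed in all 9 fits and the rise of Gzmb in 3 of 9. A gene was called at an adjusted p of 0.05 in edgeR's quasi-likelihood test, fitted on each whole table. In miR-Ctrl against no BDL, 3 of the 10 genes had enough reads to be tested (Cd4, Cd8a and Gzmb), with 1 higher and 1 lower. Of all 13072 genes tested there, 19.1% were higher and 16.6% lower, and 3 genes are too few for a share to be read against that background. With the anti-miR-873-5p mice in place of miR-Ctrl, 2 were tested (Cd4 and Gzmb) and 0 were called (1, Cd4, by DESeq2), against a background of 13.1% of 13130 genes higher and 8.44% lower. A gene passes the read filter more easily when it is high in 1 group, so these counts describe only the genes with sufficient reads. Fold changes given below for untested genes come from a fit without the filter.

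**Figure D1:**
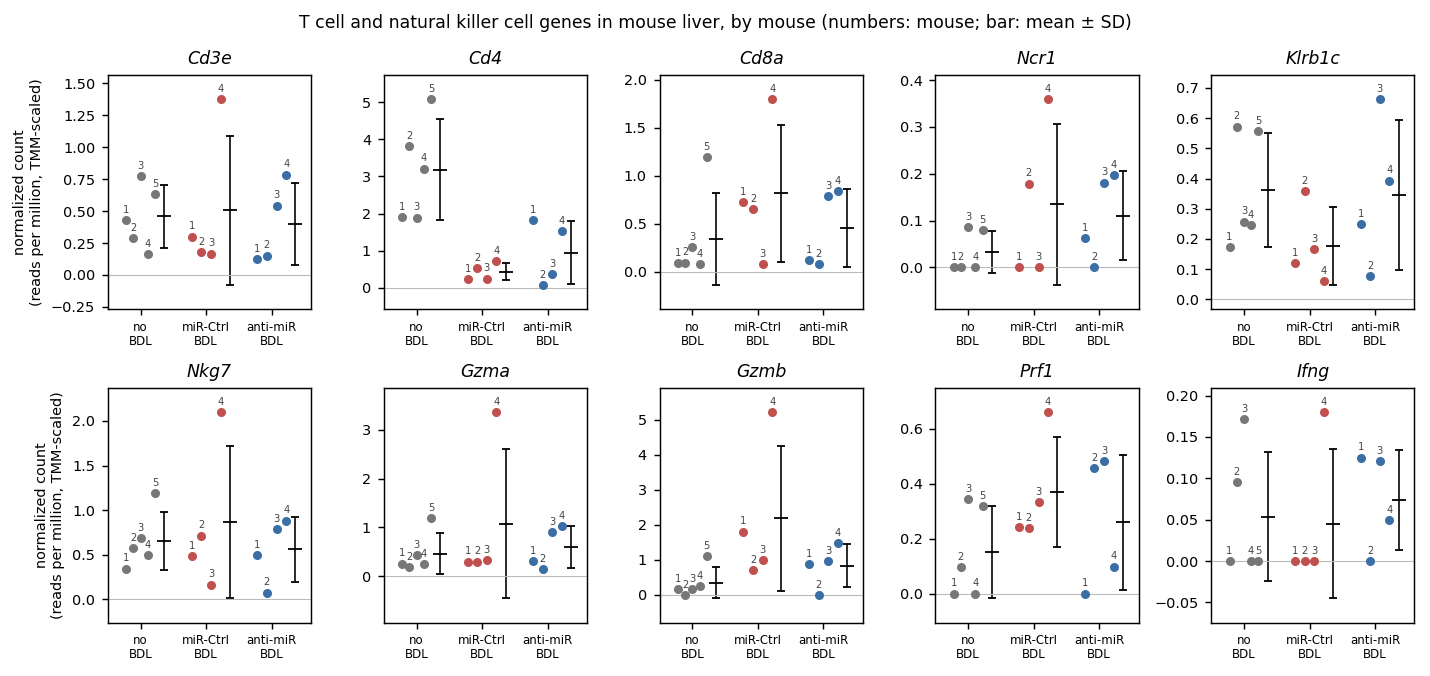
Normalized counts of the 10 genes (vertical axis, CPM of the TMM-scaled library) in each of the 13 mice, by group, with points numbered by mouse and bars for the mean ± SD. Cd4 lies lower in every miR-Ctrl BDL mouse (0.241 to 0.720) than in any no BDL mouse (1.89 to 5.09), and miR-Ctrl mouse 4 stands highest in 9 of the 10 panels within its group.

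Cd4 encodes the coreceptor of helper T cells, which binds MHC class II (Entrez 12504, chr6:124864693-124888247, minus strand). In mice without BDL its normalized count was 1.90, 3.81, 1.89, 3.21 and 5.09. It was 0.241, 0.536, 0.250 and 0.720 in miR-Ctrl BDL and 1.81, 0.0759, 0.362 and 1.52 in anti-miR-873-5p BDL. Each BDL mouse lay below each mouse without BDL. Of all genes tested, 1935 of 13072 lay apart in this direction in miR-Ctrl against no BDL. With anti-miR-873-5p it was 1080 of 13130, each comparison being scaled on its own mice. The fold change of Cd4, miR-Ctrl against no BDL, was -2.79 in log2 (SE 0.44, adjusted p = 0.00139, edgeR), from 3.18 ± 1.36 (SD, n = 5) to 0.437 ± 0.233 (n = 4). For anti-miR-873-5p against no BDL the log2 difference was -1.68 (SE 0.63), with an adjusted p of 0.0843 by edgeR and 0.0345 by DESeq2, and a group mean of 0.944 ± 0.853 (n = 4). Anti-miR-873-5p mice 1 and 4 carried 29 and 31 reads, near the lower end of the no BDL mice (22 to 64), while mice 2 and 3 carried 1 and 6. In whole liver, fewer cells of a type and less RNA per cell cannot be told apart. Over the mice without BDL, Cd4 had 187 reads and Cd3e 27, at similar exon lengths of 4032 and 4080 bases. The mean of Cd3e was 0.458 without BDL and 0.507 in miR-Ctrl BDL, while its median was 0.432 and 0.240. Without miR-Ctrl mouse 4 its log2 difference was -1.01, in the fit without the read filter. Its few reads cannot tell whether Cd3e fell with Cd4. Which cells the Cd4 reads came from was not tested, nor whether helper T cells changed in number.

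The other T cell genes had fewer reads. Cd8a, the coreceptor of cytotoxic T cells, which binds MHC class I (Entrez 12525, chr6:71373427-71379171, plus strand), was at 0.0864, 0.0953, 0.258, 0.0822 and 1.19 without BDL. It was at 0.723, 0.656, 0.0833 and 1.80 in miR-Ctrl BDL and at 0.125, 0.0759, 0.785 and 0.836 in anti-miR-873-5p BDL. The groups overlapped: no BDL mouse 5 had 15 reads where its 4 group mates had 1 to 3, and miR-Ctrl mouse 3 had 1. The log2 difference of miR-Ctrl from no BDL was 1.25 (SE 0.85, adjusted p = 0.284, edgeR). Cd3e encodes the epsilon chain of CD3, through which the T cell receptor signals (Entrez 12501, chr9:44998735-45009663, minus strand). Its normalized count was 0.432, 0.286, 0.773, 0.164 and 0.636 without BDL, 0.301, 0.179, 0.167 and 1.38 in miR-Ctrl BDL, and 0.125, 0.152, 0.543 and 0.787 in anti-miR-873-5p BDL. Means were 0.458 ± 0.249 (n = 5), 0.507 ± 0.585 (n = 4) and 0.402 ± 0.320 (n = 4), so that the 3 groups differed by less than their spread. Cd3e was below the read filter in all 3 comparisons.

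The NK receptor genes had few reads in any mouse. Ncr1, which encodes the activating receptor NKp46 (Entrez 17086, chr7:4337715-4345184, plus strand), had 0, 0, 1, 0 and 1 reads in the mice without BDL. It had 0, 3, 0 and 6 reads in miR-Ctrl BDL and 1, 0, 3 and 4 in anti-miR-873-5p BDL. Since no mouse without BDL exceeded 3 reads, no fold change was computed against that group. Klrb1c encodes NK1.1, the surface antigen by which NK cells of this strain are commonly recognised (Entrez 17059, chr6:128778485-128788641, minus strand). It had 2, 6, 3, 3 and 7 reads without BDL, 2, 6, 2 and 1 in miR-Ctrl BDL, and 4, 1, 11 and 8 in anti-miR-873-5p BDL. The groups overlapped, with means of 0.361 ± 0.188 (n = 5), 0.176 ± 0.129 (n = 4) and 0.346 ± 0.249 (n = 4). Of the 50-base windows of Klrb1c transcripts, 17% are shared with any other gene, mainly Gm44511, so its reads could be split between genes. No difference in either NK receptor was shown at this depth, and the smallest detectable difference was not computed.

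Gzmb, the gene of granzyme B, a protease that activates caspases in the target cell (Entrez 14939, chr14:56258836-56262334, minus strand), had the highest reads of the 10 genes in miR-Ctrl BDL. Its normalized count was 0.173, 0, 0.172, 0.247 and 1.11 without BDL, 1.81, 0.715, 1.00 and 5.22 in miR-Ctrl BDL, and 0.875, 0, 0.966 and 1.47 in anti-miR-873-5p BDL. The groups overlapped, as no BDL mouse 5 lay above miR-Ctrl mice 2 and 3. From no BDL to miR-Ctrl BDL, Gzmb rose by a log2 of 2.63 (SE 0.82, adjusted p = 0.0310, edgeR), from 0.341 ± 0.441 (n = 5) to 2.19 ± 2.08 (n = 4). The call rested on single mice. Without miR-Ctrl mouse 4, which had 87 reads where the other 3 had 12 to 30, the log2 difference was 1.74 (adjusted p = 0.119, edgeR), without miR-Ctrl mouse 1 it was 2.71 (0.0511), and without no BDL mouse 1, 2, 3 or 4 the adjusted p was 0.0579 to 0.0705. Without no BDL mouse 5 it was 3.81 (0.00791). The anti-miR-873-5p mice differed from no BDL by 1.29 (SE 0.90, adjusted p = 0.335, edgeR), with a mean of 0.83 ± 0.61 (n = 4).

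Gzma encodes granzyme A, a tryptase of the same granules (Entrez 14938, chr13:113093824-113100981, minus strand). It was at 0.259, 0.191, 0.429, 0.247 and 1.19 without BDL, 0.301, 0.298, 0.333 and 3.36 in miR-Ctrl BDL, and 0.313, 0.152, 0.906 and 1.03 in anti-miR-873-5p BDL. A single mouse held the difference in means: without miR-Ctrl mouse 4, with 56 reads where the other 3 had 4 or 5, the log2 difference from no BDL turned from 1.21 to -0.57, both in the fit without the read filter. Nkg7, a granule membrane protein of cytotoxic lymphocytes (Entrez 72310, chr7:43437138-43438246, plus strand), was at 0.346, 0.572, 0.687, 0.493 and 1.19 without BDL, 0.482, 0.715, 0.167 and 2.10 in miR-Ctrl BDL, and 0.500, 0.0759, 0.785 and 0.885 in anti-miR-873-5p BDL. Its groups overlapped too, and the log2 difference of miR-Ctrl from no BDL was 0.43 with all mice and -0.46 without miR-Ctrl mouse 4. Prf1, the gene of perforin (Entrez 18646, chr10:61297751-61304684, plus strand), had 0, 1, 4, 0 and 4 reads without BDL, 4, 4, 4 and 11 in miR-Ctrl BDL, and 0, 6, 8 and 2 in anti-miR-873-5p BDL. Ifng, the gene of interferon gamma (Entrez 15978, chr10:118441046-118445894, plus strand), had 0, 1, 2, 0 and 0 reads, then 0, 0, 0 and 3, then 2, 0, 2 and 1. No mouse exceeded 3 reads of Ifng, and no fold change was computed for it. Of its 50-base windows, 19.9% are shared with any other gene, mainly Gm49751.

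The granzyme promoters are printed as a description of these genes. Gzmb and Gzma stood highest in the same mouse of each group, namely number 5 without BDL and number 4 in either BDL group. Cd8a and Nkg7 were highest in those same mice, so this ranking is not particular to the granzymes. Each is the 250 bases before the annotated start, read on the gene's strand (RefSeq, GRCm38.p6), with motif letters in capitals. Gzmb is chr14:56262335-56262584 and Gzma chr13:113100982-113101231, both on the minus strand.
Gzmb promoter: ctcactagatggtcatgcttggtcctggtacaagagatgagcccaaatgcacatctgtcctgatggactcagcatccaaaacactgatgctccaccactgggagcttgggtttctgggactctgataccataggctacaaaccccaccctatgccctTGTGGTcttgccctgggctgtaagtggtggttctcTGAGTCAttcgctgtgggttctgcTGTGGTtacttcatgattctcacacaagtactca
Gzma promoter: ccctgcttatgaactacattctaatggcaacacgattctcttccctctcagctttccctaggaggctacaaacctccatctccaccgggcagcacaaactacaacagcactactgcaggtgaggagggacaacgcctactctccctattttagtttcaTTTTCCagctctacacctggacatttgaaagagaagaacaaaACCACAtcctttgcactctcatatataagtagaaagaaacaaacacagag
Searched on both strands, the RUNX letters TGTGGT lie at -93 and -34 from the start of Gzmb and at -50 from that of Gzma. These are RefSeq starts, and a GENCODE M21 transcript of Gzma begins at the same base. For Gzmb, no GENCODE M21 transcript begins in the printed stretch or at that start, so its positions depend on the RefSeq start. The AP-1 letters TGANTCA lie at -58 in Gzmb and the NFAT letters GGAAAA at -92 in Gzma, and no letters of 2 motifs overlap. Among 27025 promoters of this length, 14.2% hold the RUNX letters, 6.87% the AP-1 letters and 20.6% the NFAT letters. Of the 9 genes with an entry (all but Cd4), 6 hold the RUNX letters, namely Gzma, Gzmb, Klrb1c, Ncr1, Nkg7 and Prf1. The T-box letters GGTGTGA were found in Nkg7 alone among them and in 3.31% of all promoters. The promoters of Cd3e, Cd8a and Ifng held none of the letters searched. A match is a description of the letters and not of a bound site.

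**Figure D2:**
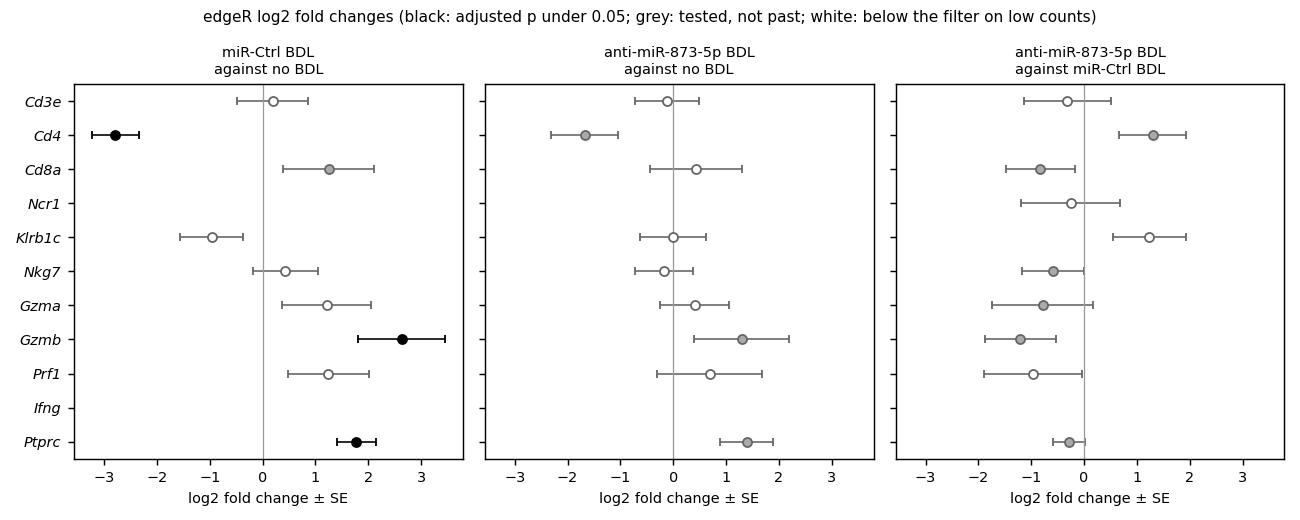
Log2 fold changes (horizontal axis) of the 10 genes and Ptprc in the 3 comparisons, with bars of 1 SE black points for genes past an adjusted p of 0.05 in edgeR's test, grey points for genes tested and not past it, and white points for genes under the read filter. Of the 10, Cd4 at -2.79 and Gzmb at 2.63 in miR-Ctrl against no BDL are black, and the comparison of both BDL groups holds none.

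Compared per length, as normalized counts per kilobase of exon, Cd4 was the highest of the 10 without BDL at 0.789, next to Nkg7 at 0.720, Gzma at 0.461 and Gzmb at 0.237. Klrb1c, Cd3e, Cd8a, Prf1, Ifng and Ncr1 followed at 0.122 to 0.0215. In miR-Ctrl BDL the order was led by Gzmb at 1.52, Gzma at 1.07 and Nkg7 at 0.947, with Cd4 at 0.108. In anti-miR-873-5p BDL it was Nkg7 at 0.614, Gzma at 0.597, Gzmb at 0.577 and Cd4 at 0.234. The first 3 of each BDL group lay within the spread of their mice, as did Cd4 and Nkg7 without BDL.

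The effect of the inhibitor under BDL was compared in 3 mice of anti-miR-873-5p (1, 3 and 4) against 3 of miR-Ctrl (1, 2 and 4). Here 5 of the 10 genes were tested and 0 passed, and across all 13746 genes edgeR called 0% at the adjusted threshold, with 863 at an unadjusted p below 0.05 and a lowest adjusted p of 0.757 (DESeq2 called 31 genes). None of the 10 genes was below an unadjusted p of 0.05 in this edgeR fit. Without miR-Ctrl mouse 2, or without anti-miR-873-5p mouse 3, 1 of them was. The log2 differences of anti-miR-873-5p from miR-Ctrl were 1.30 for Cd4 (SE 0.64), -0.83 for Cd8a (SE 0.65), -0.59 for Nkg7 (SE 0.58), -0.79 for Gzma (SE 0.96) and -1.20 for Gzmb (SE 0.67). Their adjusted p-values were 0.781 to 0.902 (edgeR), which does not show that the groups were alike. Without miR-Ctrl mouse 4 the differences turned to 1.31 for Gzma, 0.27 for Nkg7, 1.01 for Cd3e and 0.69 for Ncr1. Both comparisons against no BDL share those 5 mice, so their values stand side by side and were not set against each other.

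Ptprc, which encodes CD45 and marks all leukocytes, was measured beside these genes. Its normalized count was 4.92, 5.53, 6.44, 5.92 and 14.2 without BDL, 20.3, 35.8, 13.1 and 30.2 in miR-Ctrl BDL, and 14.6, 4.78, 24.0 and 32.2 in anti-miR-873-5p BDL. Ptprc rose by a log2 of 1.77 from no BDL to miR-Ctrl BDL (SE 0.37, adjusted p = 0.00519, edgeR), while the difference in anti-miR-873-5p against no BDL was 1.39 (SE 0.50, adjusted p = 0.0722) and that between the BDL groups -0.28 (SE 0.31, adjusted p = 0.883). The second of these passed without anti-miR-873-5p mouse 2, whose Ptprc lay below all mice without BDL (1.69, adjusted p = 0.00878, edgeR), and without no BDL mouse 5 (1.77, 0.0285). Both mice also stood at an end of many of the 10 genes within their group. Anti-miR-873-5p mouse 2 was lowest in 8, with 14 reads summed over the 10 against 67 to 148 in the other 3, and no BDL mouse 5 was highest in 5, with 143 against 39 to 60. MiR-Ctrl mouse 4, second in Ptprc within its group, was highest in 9 and lowest in Klrb1c, with 264 reads against 30 to 70.

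**Figure D3:**
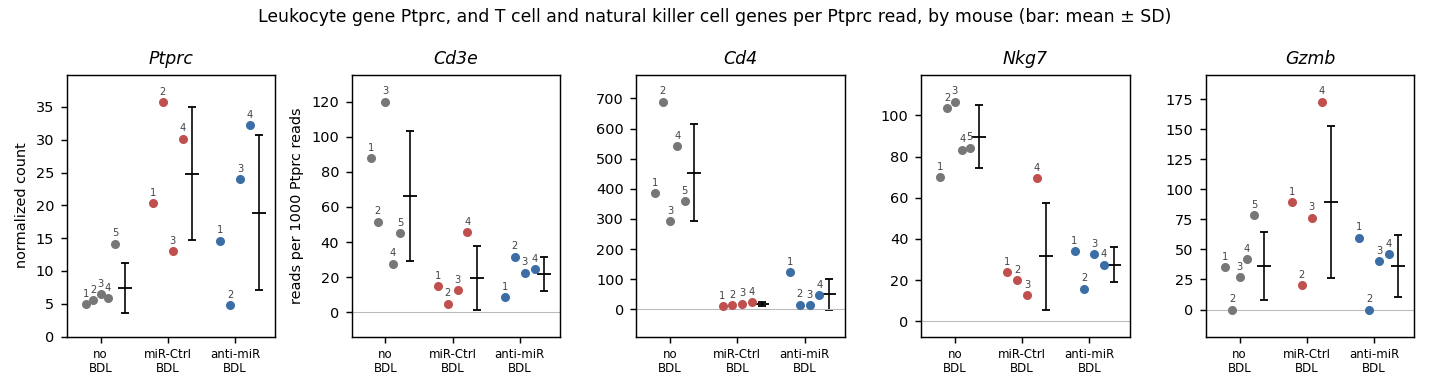
Normalized count of Ptprc (first panel) and reads of Cd3e, Cd4, Nkg7 and Gzmb per 1000 Ptprc reads (other panels) on the vertical axes in every mouse, by group, with points numbered by mouse and bars for the mean ± SD. Cd4 lies at 293 to 690 per 1000 Ptprc reads without BDL and at 11.9 to 23.9 in miR-Ctrl BDL, while Gzmb spans 0 to 78.7 and 20.0 to 173.

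A ratio to Ptprc within each library is unaffected by how libraries are scaled, and is given as a description of unequal change, without a test. Per 1000 Ptprc reads, Cd4 reads were 293 to 690 in the mice without BDL, 11.9 to 23.9 in miR-Ctrl BDL and 15.1 to 124 in anti-miR-873-5p BDL. Klrb1c was at 35.1 to 103, 1.99 to 12.7 and 12.2 to 27.6, and Nkg7 at 70.2 to 107, 12.7 to 69.6 and 15.9 to 34.2. For these 3 genes each BDL mouse lay below each mouse without BDL. Mean Ptprc was 7.39 without BDL, 24.8 in miR-Ctrl BDL and 18.9 in anti-miR-873-5p BDL, so an unchanged gene falls on this ratio. The normalized counts of Klrb1c and Nkg7 overlapped between groups. The share of all genes separated in this way per Ptprc read was not computed. Pooled over the mice of a group, Cd3e stood at 61.4, 20.7 and 21.5, Gzma at 63.6, 43.8 and 31.9, and Prf1 at 20.5, 14.4 and 11.9. The medians over mice had the higher value without BDL as well, at 51.7, 13.8 and 23.5 for Cd3e, 52.6, 20.2 and 31.9 for Gzma, and 17.2, 16.9 and 11.6 for Prf1. For Cd8a the order depended on the summary, with 47.7, 33.8 and 24.4 pooled but medians of 17.5, 27.0 and 20.9, since no BDL mouse 5 held 15 of the 21 Cd8a reads of its group. Gzmb was highest in miR-Ctrl BDL by both, at 47.7, 88.3 and 44.4 pooled and medians of 35.1, 82.7 and 43.0, while no BDL and anti-miR-873-5p BDL changed places between them. Ncr1 was at 4.55, 5.64 and 5.93 and Ifng at 6.82, 1.88 and 3.70, each from few reads.

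Markers of other leukocytes and liver cells moved with BDL. Of all genes tested, 19.1% were higher and 16.6% lower in miR-Ctrl against no BDL, and 13.1% and 8.44% with anti-miR-873-5p. In miR-Ctrl against no BDL, 5 of 7 macrophage and Kupffer cell markers and 5 of 6 tested monocyte and neutrophil markers were higher, and 4 of 5 hepatocyte markers were lower. Summed macrophage markers ran from 106 to 628 without BDL, 631 to 1501 in miR-Ctrl BDL and 382 to 1231 in anti-miR-873-5p BDL, and summed monocyte and neutrophil markers from 12.0 to 28.5, 42.6 to 245 and 22.5 to 108. All 4 cholangiocyte markers were higher (summed 10.7 to 14.1, 42.1 to 79.6 and 37.7 to 92.3), as were 2 of 4 stellate cell and fibroblast markers (1 without miR-Ctrl mouse 1 or 2 or no BDL mouse 4, and 3 without miR-Ctrl mouse 3), with 0 of 4 endothelial markers called. Between anti-miR-873-5p and no BDL the counts were 1 of 7 for macrophages, 4 of 6 for monocytes and neutrophils, 4 of 4 for cholangiocytes and 2 of 4 for stellate cells higher, and 3 of 5 hepatocyte markers lower. None of these markers was at 0 in all mice of a group, and 0 were called between the BDL groups. The macrophage count in miR-Ctrl against no BDL was 2 without miR-Ctrl mouse 2, 3 without miR-Ctrl mouse 4 or no BDL mouse 2, and 7 without no BDL mouse 5. Between anti-miR-873-5p and no BDL it was 6 without no BDL mouse 5 and 0 without any 1 of 6 mice (anti-miR-873-5p 3 and 4, no BDL 1 to 4), and the monocyte and neutrophil count was 1 or 2 without those 6. The part of these cells in the Cd4 and Gzmb results was not tested.

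Pathways around the 10 genes were described by lists, with the number of genes called and the median log2 difference of those tested, beside a median over all genes of -0.011 in miR-Ctrl and -0.0070 in anti-miR-873-5p against no BDL. The shares of all genes called higher and lower were 19.1% and 16.6% in miR-Ctrl, and 13.1% and 8.44% in anti-miR-873-5p. Lists with few genes tested cannot be read against these shares. Of 18 further T cell receptor and surface genes, 9 were tested in miR-Ctrl against no BDL, with 1 higher, 1 lower and a median of 0.40 (0.053 without miR-Ctrl mouse 4 to 0.57 without miR-Ctrl mouse 3). Zap70, the kinase that binds the phosphorylated CD3 chains, fell by 1.61 (log2, SE 0.25, adjusted p = 0.00124, edgeR), from 5.94 ± 1.51 (n = 5) to 1.89 ± 0.44 (n = 4) normalized counts, with no overlap between groups. It also fell in anti-miR-873-5p against no BDL, by 1.10 (SE 0.28, adjusted p = 0.0211, edgeR), to 2.73 ± 0.92 (n = 4), alone among 8 tested there. That call was lost without anti-miR-873-5p mouse 3 or 4 or no BDL mouse 1 or 2 (adjusted p 0.0515 to 0.0660, edgeR). Which cells the Zap70 reads came from was not tested. Lcp2, an adaptor that Zap70 phosphorylates and that myeloid cells also use, rose by 1.62 (SE 0.45, adjusted p = 0.0200, edgeR), from 5.41 ± 3.94 (n = 5) to 16.4 ± 5.0 (n = 4), a call lost without miR-Ctrl mouse 2 (0.0531) or 4 (0.0516). Of Lcp2 exon bases, 6.32% overlap another gene.

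NK receptors and adaptors were mostly below the read filter: of 12, 3 were tested and 1 was higher in miR-Ctrl against no BDL. Tyrobp, the adaptor DAP12 of NK receptors and of many myeloid receptors, rose by 1.94 (SE 0.49, adjusted p = 0.0128, edgeR), with 9.68 ± 7.94 (n = 5) without BDL and 36.7 ± 12.8 (n = 4) in miR-Ctrl BDL. The lowest miR-Ctrl mouse, at 24.9, lay just above the highest mouse without BDL, at 23.1, and without that mouse, number 5, the rise was 2.56 (adjusted p = 0.000843, edgeR). Without miR-Ctrl mouse 1, 3 of 5 tested genes of this list were higher. With anti-miR-873-5p, 0 of 3 passed against no BDL, and 1 did without anti-miR-873-5p mouse 1 or 2 or no BDL mouse 5. Klrg1 had no read in any mouse without BDL.

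Of 11 granule and death ligand genes, 7 were tested and 4 were higher in miR-Ctrl against no BDL, with a median of 0.96. Stx11, a syntaxin needed for the fusion of cytotoxic granules, rose by 2.41 (SE 0.50, adjusted p = 0.00519, edgeR), from 0.579 ± 0.462 (n = 5) to 3.13 ± 0.88 (n = 4). Srgn, the proteoglycan serglycin that packs granzymes, rose by 1.99 (SE 0.32, adjusted p = 0.00144, edgeR), from 5.49 ± 1.46 (n = 5) to 21.6 ± 10.9 (n = 4). Ctsc, the protease that activates granzyme precursors, rose by 1.21 (SE 0.29, adjusted p = 0.0103, edgeR), from 75.3 ± 31.7 (n = 5) to 171 ± 48 (n = 4). These 3 genes are also expressed by myeloid cells, whose markers rose in the same mice, and the part of those cells was not tested. With anti-miR-873-5p, 0 of 7 passed against no BDL, with a median of 0.42 (0.15 without anti-miR-873-5p mouse 4 to 0.71 without no BDL mouse 5), but 3 did without anti-miR-873-5p mouse 2, 2 without no BDL mouse 5 and 1 without anti-miR-873-5p mouse 1.

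Of 11 lymphocyte transcription factors, 7 were tested and 2 were higher in miR-Ctrl against no BDL. Prdm1, the repressor Blimp-1 of effector lymphocytes, rose by 2.37 (SE 0.42, adjusted p = 0.00235, edgeR), from 0.207 ± 0.097 (n = 5) to 1.07 ± 0.40 (n = 4). Runx3, a factor of CD8 T cells and NK cells, rose by 1.46 (SE 0.25, adjusted p = 0.00219, edgeR), from 0.932 ± 0.222 (n = 5) to 2.51 ± 0.59 (n = 4). Without miR-Ctrl mouse 3, or without no BDL mouse 5, the list had 3 higher and 1 lower. With anti-miR-873-5p, Runx3 alone of 6 tested passed against no BDL, at 1.21 (SE 0.35, adjusted p = 0.0354, edgeR). It did so in 2 of the 9 fits that left out a mouse, those without anti-miR-873-5p mouse 1 or 2, with an adjusted p of 0.0533 to 0.116 in the other 7, and the list had 4 higher without anti-miR-873-5p mouse 2.

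Of 12 chemokines and receptors of lymphocytes, 8 were tested and 3 were higher in miR-Ctrl against no BDL, with a median of 1.17 (0.79 without miR-Ctrl mouse 4 to 1.89 without no BDL mouse 5). Cxcl9 and Cxcl10 of this list are among genes the study itself picked on these samples, so the list is not independent evidence of direction. Ccl4, a chemokine released by activated leukocytes, rose by 4.30 (SE 1.22, adjusted p = 0.0206, edgeR), with miR-Ctrl mouse 3 at 16.7 normalized counts and its group mates at 0.663 to 1.19. Without that mouse the rise was 2.00 (adjusted p = 0.0449, edgeR), and without no BDL mouse 5 it was 5.65 (0.0165). Cxcl10, an interferon-induced ligand of CXCR3, rose by 2.82 (SE 0.69, adjusted p = 0.0104, edgeR), with miR-Ctrl mouse 4 at 51.8, and by 1.90 without that mouse (0.0300). Cxcl16, the ligand of CXCR6, rose by 1.88 (SE 0.30, adjusted p = 0.00136, edgeR), from 9.80 ± 4.12 (n = 5) to 35.6 ± 10.8 (n = 4). It also rose in anti-miR-873-5p against no BDL, by 1.80 (SE 0.38, adjusted p = 0.0110, edgeR), to 33.4 ± 16.1 (n = 4), alone among 7 tested there. Of Cxcl16 exon bases, 18.3% overlap any other gene, mainly Zmynd15. The counts were 6 without no BDL mouse 5 and 5 without miR-Ctrl mouse 3, and with anti-miR-873-5p 3 without anti-miR-873-5p mouse 2 or no BDL mouse 5.

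Of 11 cytokines that drive interferon gamma and their receptors, 8 were tested, with 3 higher, 1 lower and a median of 0.062 in miR-Ctrl against no BDL (-0.14 without miR-Ctrl mouse 4 to 0.16 without miR-Ctrl mouse 2). Il18r1, a chain of the interleukin-18 receptor, rose by 1.73 (SE 0.43, adjusted p = 0.0116, edgeR), and Il21r, the interleukin-21 receptor, by 1.51 (SE 0.33, adjusted p = 0.00618, edgeR). Il2rg, the receptor chain shared by interleukins 2 and 15, rose by 1.38 (SE 0.44, adjusted p = 0.0319, edgeR), a call lost in 6 of the 9 fits without a mouse (miR-Ctrl 2 or 4, no BDL 1 to 4, adjusted p 0.0589 to 0.0951). Of Il2rg exon bases, 30.5% overlap any other gene, mainly Gm20489. Without miR-Ctrl mouse 4 the list had 2 higher and 2 lower. With anti-miR-873-5p, 0 were higher than in no BDL and 2 lower, or 1 lower without anti-miR-873-5p mouse 3. Without anti-miR-873-5p mouse 2, 1 was higher, Il21r at 1.55 (adjusted p = 0.0109, edgeR).

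The receptor and response genes of interferon gamma were the best covered, with 22 of 23 tested. In miR-Ctrl against no BDL all 22 had a log2 difference above 0, 7 were called higher and the median was 1.15 (0.74 without miR-Ctrl mouse 4 to 1.40 without miR-Ctrl mouse 3). Socs1, a feedback inhibitor of the receptor's kinases, rose by 3.56 (SE 1.03, adjusted p = 0.0225, edgeR), a call lost without miR-Ctrl mouse 3 (2.27, 0.0563) or no BDL mouse 1 (0.0520) or 2 (0.0515). The reads of Socs1 differ between the deposited tables, for a reason not given in the sources used here. Gbp2, an interferon-induced GTPase, rose by 2.57 (SE 0.68, adjusted p = 0.0153, edgeR), with miR-Ctrl mouse 4 at 74.9 normalized counts against a group mean of 29.0 ± 30.7 (n = 4) and 4.93 ± 3.61 (n = 5) without BDL, and by 1.49 without that mouse (0.0475). Cd274, which encodes PD-L1, an inhibitory ligand of T cells, rose by 2.00 (SE 0.49, adjusted p = 0.0105, edgeR), from 2.86 ± 1.65 (n = 5) to 11.3 ± 8.0 (n = 4), with miR-Ctrl mouse 4 at 22.9 and a rise of 1.39 without it (0.0291). Of Cd274 exon bases, 14.1% overlap another gene. The count was 16 without miR-Ctrl mouse 3 and 10 without no BDL mouse 5. With anti-miR-873-5p, 2 were higher than in no BDL and 1 lower, with a median of 0.49 (0.26 without anti-miR-873-5p mouse 3 to 0.78 without no BDL mouse 5), and 9 were higher without anti-miR-873-5p mouse 2 and 4 without no BDL mouse 5. The lower one lost its call in 7 of the 9 fits without a mouse, all but those without anti-miR-873-5p mouse 1 or 2.

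Between the BDL groups, none of the genes tested in these 7 lists passed (adjusted p by edgeR), and 3 chemokine genes and 0 of the others were at an unadjusted p below 0.05. Of the interferon gamma list, all 22 tested genes had a lower mean in anti-miR-873-5p than in miR-Ctrl BDL, with a median log2 difference of -0.56 beside 0.0057 over all genes. Without miR-Ctrl mouse 4 the median was -0.14 and 15 of the 22 were lower. The medians of the other lists were -0.064 for T cell genes, -0.19 for NK receptors, -0.33 for granule genes, 0.11 for transcription factors, -0.30 for chemokines and -0.056 for the cytokines that drive interferon gamma. With 1 mouse left out they turned sign for T cell genes (-0.28 without miR-Ctrl mouse 1 to 0.13 without miR-Ctrl mouse 4), NK receptors (-0.63 without anti-miR-873-5p mouse 4 to 0.10 without mouse 1), transcription factors (-0.027 without anti-miR-873-5p mouse 4 to 0.35 without miR-Ctrl mouse 2) and those cytokines (-0.20 without anti-miR-873-5p mouse 3 to 0.090 without miR-Ctrl mouse 4). The granule median ran from -0.58 without anti-miR-873-5p mouse 4 to -0.22 without mouse 1, and the chemokine median from -0.54 without anti-miR-873-5p mouse 4 to -0.083 without miR-Ctrl mouse 4.

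**Figure D4:**
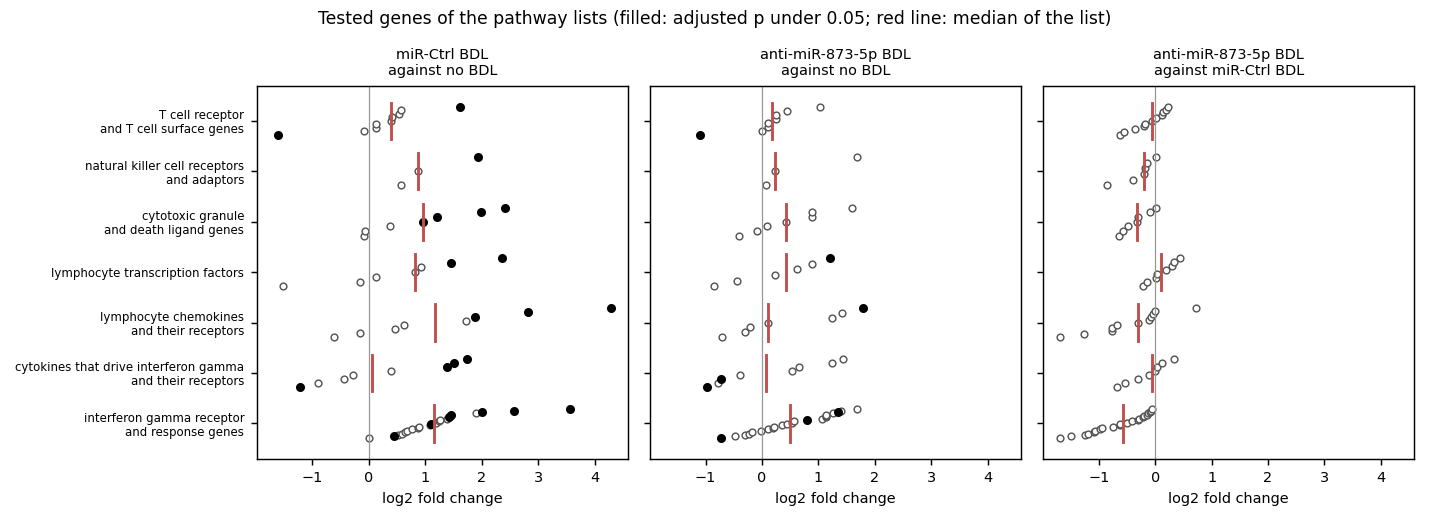
Log2 fold changes (horizontal axis) of the tested genes of the 7 lists (vertical axis) in the 3 comparisons, 1 point per gene, filled where past an adjusted p of 0.05 in edgeR's test, with a red line at the list's median. The interferon gamma list lies above 0 for all 22 tested genes in miR-Ctrl against no BDL (median 1.15) and below 0 for all 22 between the BDL groups (median -0.56, none filled).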

How the data were processed

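RNA from the livers of 13 mice was sequenced as 50-nt single reads from TruSeq RNA libraries. Per the submitters' notes, the authors used CASAVA 1.8.2, FastQC, Trim Galore and TopHat on mm10, and the deposited tables hold their raw read counts per gene, keyed by Entrez identifier, 1 table for each pair of groups. The counting program, the annotation and its use of strand were not given in the sources used here. All columns of the tables were used. Genes numbered 22246 with identical counts across tables, the 10 described here among them.

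Each table was fitted whole with edgeR 4.0.16 (filterByExpr, TMM, quasi-likelihood test) in R 4.3.3, with limma 3.58.1, and p-values were adjusted by Benjamini-Hochberg over all genes tested at 0.05. SEs were derived from the log2 fold change and its F statistic. The tables were fitted separately, and values by mouse come from 1 TMM scaling of all 13 mice. Depth of 12185333 to 19689037 reads per mouse sets the precision, and floors of 3 reads cover counting error only. No fold change is given where no mouse of a group exceeded 3 reads. Alternatives were library size alone, DESeq2 1.42.0 size factors and Wald test, no filter (at least 1 count), a mean of at least 10 counts, 3 groups in 1 fit, a replicate block, an adjusted p of 0.1, and each mouse left out. For the BDL groups against each other, all mice of both groups were a further alternative. The scripts were tested on simulated data. Lengths and shared windows came from GENCODE M21, coordinates and sequences from RefSeq GRCm38.p6.

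The 10 genes and all lists were chosen with earlier results of these data known. Of each pathway list, up to 3 genes were named, those with the largest absolute log2 fold change past the threshold in miR-Ctrl against no BDL, and of the marker lists the counts and sums.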

Additional observations from a re-analysis of the deposited data

Results flagged for a closer look

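Single mice far from their group were sought for the 10 genes and Ptprc in each group by Dixon's ratio. Of 29 groups tested 6 had such a mouse, and groups without a mouse above 3 reads were left out. The ratio's chance rate of about 5 percent holds for normally distributed values. Low counts such as these need not follow it, so the number found was not compared with that rate. In the mice without BDL, mouse 5 was far above the others in Cd8a (1.19 normalized counts, 15 reads), Gzma (1.19, 15 reads), Gzmb (1.11, 14 reads) and Ptprc (14.2, 178 reads). In miR-Ctrl BDL, mouse 4 was far above in Cd3e (1.38, 23 reads) and Gzma (3.36, 56 reads). The genes share these mice, so the 6 cases are not independent. Without no BDL mouse 5 the log2 difference of Gzmb in miR-Ctrl against no BDL was 3.81 (adjusted p = 0.00791, edgeR), and without miR-Ctrl mouse 4 it was 1.74 (adjusted p = 0.119, edgeR).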

How the results depend on the processing

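Over Ptprc, the 10 genes and the named pathway genes, 982 alternative values were computed, of which 867 kept their direction and side of the threshold, 58 passed it only under the alternative, 30 no longer passed and 27 changed sign. The fall of Cd4 in miR-Ctrl against no BDL passed in all 17 alternatives run, from -3.13 to -1.97, the last under library size alone. The rise of Gzmb there lost its call only in the 6 leave-one-out fits given with it. Library size alone moved the median log2 difference of all genes to 0.79 in miR-Ctrl and 0.82 in anti-miR-873-5p against no BDL. It called 9635 genes (9360 higher, 275 lower) in place of 4666 (2491 higher, 2175 lower), and 10194 (10063 higher, 131 lower) in place of 2823 (1715 higher, 1108 lower). Relative to that shift, calls it added among the 10 genes (Cd8a 2.05 in miR-Ctrl, Gzmb 2.15 in anti-miR-873-5p) are smaller by those medians. Prf1 (1.98 in miR-Ctrl) was under the read filter, so its passing value comes from the fit without that filter and is not a call.

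Leaving out a mouse gave 3775 to 5710 genes and 1 to 2 of the 10 in miR-Ctrl against no BDL, 1261 to 4317 genes and 0 of the 10 in anti-miR-873-5p against no BDL, and 0 to 1 genes between the BDL groups. Between anti-miR-873-5p and no BDL, 1 of the 10 genes was called under library size alone (Gzmb), under DESeq2's Wald test (Cd4) and at an adjusted p of 0.1 (Cd4). DESeq2 called 31 genes between the BDL groups where edgeR called 0.

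With the mouse number as a replicate block, 4063, 2195 and 0 genes were called in the 3 comparisons (1009 at an unadjusted p below 0.05 in the last), with 2, 1 and 0 of the 10. The 1 was Gzmb in anti-miR-873-5p against no BDL, at 2.45 (adjusted p = 0.0282, edgeR). Between the BDL groups, 3 of the 10 were at an unadjusted p below 0.05 with the block, against 0 in the main fit (edgeR). Deviations of same-numbered mice had correlations of -0.20 to 0.074 against no BDL. Between the BDL groups they were 0.35 and -0.016, where number 1 alone correlated best with its own. With so few mice, these correlations cannot tell whether same-numbered mice shared a batch.

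Signs changed in genes under the read filter or far from the threshold. Between anti-miR-873-5p and no BDL, library size alone gave 0.72 for Cd3e, 0.86 for Klrb1c and 0.68 for Nkg7, DESeq2 size factors gave 0.0043 for Klrb1c, and the replicate block gave 0.16 for Klrb1c and 0.043 for Nkg7. Leaving out a mouse gave, in miR-Ctrl against no BDL, -1.01 to 0.47 for Cd3e, -0.46 to 0.77 for Nkg7 and -0.57 to 1.93 for Gzma. Between anti-miR-873-5p and no BDL it gave -0.68 to 0.16 for Cd3e, -0.033 to 1.80 for Cd8a, -0.49 to 0.29 for Klrb1c and -0.48 to 0.16 for Nkg7. Between the BDL groups it gave -0.87 to 1.01 for Cd3e, -0.81 to 0.69 for Ncr1, -0.94 to 0.27 for Nkg7 and -1.26 to 1.31 for Gzma. The cause was not tested. No fold change was computed for Ncr1 against no BDL or for Ifng, which had too few reads.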

Other observations

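B cell and plasma cell genes did not follow Ptprc. Their 8 markers summed to 6.01 to 10.99 normalized counts in the mice without BDL, 3.67 to 7.14 in miR-Ctrl BDL and 3.79 to 7.33 in anti-miR-873-5p BDL. In miR-Ctrl against no BDL 3 were tested and 0 passed (1 at an unadjusted p below 0.05, edgeR), although 1 was lower in 5 of the 9 fits that left out a mouse. Between anti-miR-873-5p and no BDL 1 of 4 was lower, a call kept without anti-miR-873-5p mouse 1 or 2 or no BDL mouse 5 and lost without any of the other 6. Of 6 dendritic cell markers, which summed to 6.74 to 10.3, 5.83 to 19.2 and 6.68 to 16.5, 4 were tested and 1 was higher in each comparison against no BDL, the second time not without anti-miR-873-5p mouse 3 or 4 or no BDL mouse 1, 2, 3 or 4. Between the BDL groups 0 markers of either list passed (edgeR, 0 at an unadjusted p below 0.05).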
